A study of Mus musculus with 6 samples.

Results

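The genes of the T cell receptor complex and CD8 coreceptor were described in peptide-stimulated mouse spleen cell cultures with or without butyrate. They comprise Trac, Trbc1 and Trbc2 (constant regions of the receptor's alpha and beta chains), Cd3d, Cd3e, Cd3g and Cd247 (the CD3 delta, epsilon, gamma and zeta signalling chains) and Cd8a and Cd8b1 (the CD8 alpha and beta chains). These 9 genes were chosen by name among the 27179 genes of the count table. All 9 passed the filter on low counts.

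The cells came from gBT-I mice, a strain whose CD8+ T cells carry a transgenic receptor for a peptide from glycoprotein B of herpes simplex virus. Whole spleen cells were stimulated in culture with that peptide and lipopolysaccharide, received IL-2 on days 2 to 5 and were harvested on day 6. The 3 control libraries had no other agent in their labels, and the 3 butyrate libraries came from cultures with butyrate, a short-chain fatty acid that inhibits histone deacetylases, added from day 3. Both groups therefore share the transgene, the stimulation, lipopolysaccharide and IL-2. The sources used here do not give the butyrate dose, the number of mice or any sorting of the cells. The p-values therefore measure the spread between these libraries, which may be technical.

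In the receptor complex, the alpha and beta chains bind peptide and MHC but have almost no tail inside the cell. Signals pass through the CD3 chains, whose tails carry tyrosine motifs (ITAMs) that the kinase Lck phosphorylates and the kinase ZAP-70 then binds. CD8 holds MHC class I and brings Lck to the complex. A chain that finds no partner is degraded inside the cell, so surface receptor depends on the supply of every chain.

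The 2 beta constant regions lie on chromosome 6, Trbc1 at 41538219 to 41539665 and Trbc2 at 41546730 to 41548181 (GRCm38). Their annotated coding stretches, each 521 bases to the stop codon, are 95.6% identical, and the first 259 bases are the same in both. Of the 23 differences, 22 fall in the last 150 bases (372 to 521). This end is shown because it holds nearly all coding bases by which a read can tell the genes apart, and capitals mark the bases that differ.
Trbc1: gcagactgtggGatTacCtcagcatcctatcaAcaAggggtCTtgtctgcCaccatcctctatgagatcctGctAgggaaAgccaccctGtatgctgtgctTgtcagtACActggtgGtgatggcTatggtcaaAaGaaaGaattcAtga
Trbc2: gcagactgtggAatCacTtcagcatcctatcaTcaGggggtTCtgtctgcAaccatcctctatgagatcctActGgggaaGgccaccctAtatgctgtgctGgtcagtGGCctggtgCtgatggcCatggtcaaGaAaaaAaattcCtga
No source used here states how reads that fit both genes were treated in the authors' counting. The split between Trbc1 and Trbc2 is therefore uncertain. The sources used here also do not say which joining and constant segments the transgenic receptor uses. Counts of Trac, Trbc1, Trbc2 and the joining segments may hold reads from the transgenes as well as from the genes at the positions given. Reads of these 2 origins were not told apart.

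Of the 9 genes, 3 were lower with butyrate by edgeR's quasi-likelihood test (adjusted p under 0.05): Trbc1, Cd3e and Cd247. Over all 11740 genes tested, 45.9% were called in either direction and 22.5% were called lower, against 33.3% of the 9. The groups did not overlap for the same 3 genes, and for 57.1% of all tested genes. None of the 9 was called higher, with 0 at an unadjusted p under 0.05 and 0 called by DESeq2 or limma voom. Among all calls 51.1% were higher, and 61.8% with upper quartile scaling, under which the same 3 genes were called. The median log2 fold change was -0.07 over the 9 genes and 0.00 over all tested genes. Fewer cells of a type and less RNA per cell cannot be told apart in bulk libraries.

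**Figure D1:**
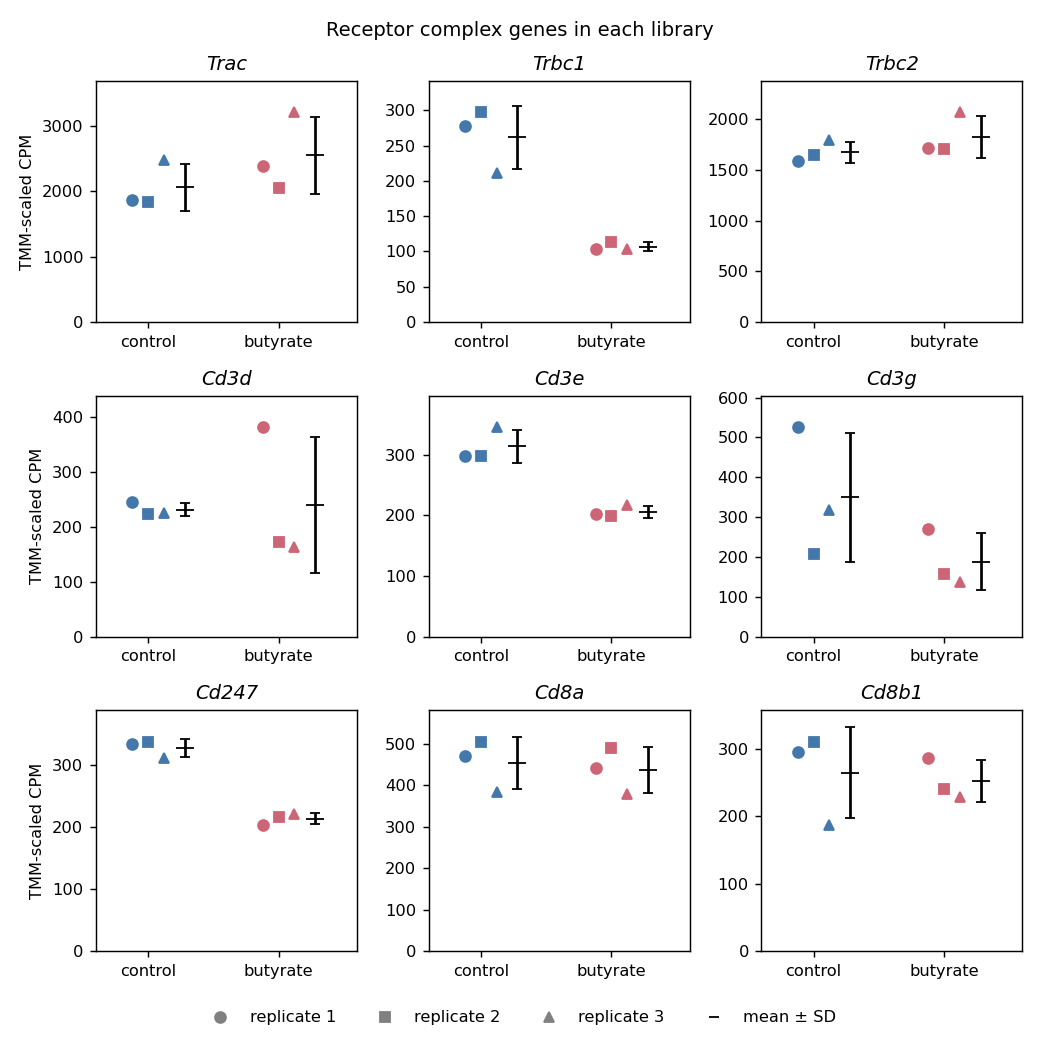
TMM-scaled CPM (vertical axes from 0) of the 9 genes in the 3 control (blue) and 3 butyrate (red) libraries, with symbols for the replicate number and black bars for mean ± SD. Trbc1, Cd3e and Cd247 sit lower in every butyrate library. Cd3g is spread in both groups, and Cd3d by butyrate replicate 1.

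Among the antigen-binding chains, Trbc1 stood at 277, 297 and 211 CPM (read counts per 1000000, with TMM scaling of library size) in control replicates 1 to 3. With butyrate it stood at 104, 114 and 104 CPM. All butyrate libraries were below all controls. The means were 262 ± 44.8 and 107 ± 5.89 CPM (SD, n = 3). On the log2 scale this was a fold change of -1.29 (SE 0.128, adjusted p = 0.000126 by edgeR).

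Trbc2 stood at 1584, 1648 and 1791 CPM in control and at 1714, 1705 and 2067 CPM with butyrate. The groups overlapped, and the change did not pass the test (log2 fold change 0.13, 95% interval -0.11 to 0.37, edgeR adjusted p = 0.357). Trbc1 made up 14.9%, 15.3% and 10.5% of the counts of both beta constant regions in control and 5.70%, 6.26% and 4.78% with butyrate. The exact (Clopper-Pearson) 95% intervals of these shares reached from 10% to 16.0% over the control libraries and from 4.40% to 6.74% over the butyrate libraries, and cover counting error only. The summed level of Trbc1 and Trbc2 was 1936 ± 71.0 CPM in the control group and 1935 ± 203 CPM in the butyrate group (SD, n = 3), a difference far below the spread between libraries.

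Segments upstream of each constant region gave further values at this locus. The 7 Trbj1 joining segments, which lie before Trbc1, summed to 138 to 193 CPM in control and 84.2 to 114 CPM with butyrate, and the 6 Trbj2 segments, which lie before Trbc2, to 58.4 to 72.4 and 27.4 to 29.4 CPM. Both sets were thus lower in every butyrate library, while Trbc2 was not.

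Trac, on chromosome 14 (54220521 to 54224198), had 1866, 1844 and 2481 CPM in control and 2389, 2057 and 3209 CPM with butyrate. Replicate 3 was the highest library of each group, and the groups overlapped. Its log2 fold change of 0.31 (SE 0.179, 95% interval -0.10 to 0.71) was not called (edgeR adjusted p = 0.191). With the replicate number as a block it was called higher (0.29 on the log2 scale, SE 0.0955, adjusted p = 0.0287). Its log2 fold change was 0.11 with butyrate replicate 3 left out and 0.47 with control replicate 3 left out, with no call in either case.

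CD3 genes showed 2 patterns. Cd3e and Cd247 were lower by close to the same factor and with little spread. By contrast, Cd3g varied widely between the libraries of both groups, and Cd3d between the butyrate libraries. Cd3e encodes the chain that pairs with both CD3 gamma and CD3 delta. It lies on chromosome 9 (44998735 to 45009663) and stood at 298, 298 and 346 CPM in control and at 202, 199 and 218 CPM with butyrate. The highest butyrate library was below the lowest control. On the log2 scale Cd3e changed by -0.61 (SE 0.0903, adjusted p = 0.000816 by edgeR).

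Cd247 on chromosome 1 (165779952 to 165871153) encodes the zeta chain, which joins the complex as a pair and carries more ITAMs than any other chain of it. It had 333, 337 and 310.5 CPM in control and 203, 216 and 221 CPM with butyrate, again with no overlap. On the log2 scale Cd247 changed by -0.62 (SE 0.0792, adjusted p = 0.000401 by edgeR). The mean of Cd3e fell by 34.4% and that of Cd247 fell by 34.8%. Their ratio within a library was 1.12, 1.13 and 0.899 in control and 1.01, 1.08 and 1.01 with butyrate, so the butyrate values lay inside the control range.

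The stretches before the transcription starts of Cd3e and Cd247 are shown because these CD3 genes were called lower on different chromosomes. Each is the 250 bases before the start in RefSeq's promoter table (GRCm38.p6), at chr9:45009612-45009861 on the minus strand for Cd3e and chr1:165788431-165788680 on the plus strand for Cd247. The start used for Cd3e lies 52 bases inside the gene span given above, and that for Cd247 lies 8729 bases inside it, an internal start and not the outermost one. Capitals mark the letters AGGAAG or their reverse complement, a core bound by ETS factors.
Cd3e: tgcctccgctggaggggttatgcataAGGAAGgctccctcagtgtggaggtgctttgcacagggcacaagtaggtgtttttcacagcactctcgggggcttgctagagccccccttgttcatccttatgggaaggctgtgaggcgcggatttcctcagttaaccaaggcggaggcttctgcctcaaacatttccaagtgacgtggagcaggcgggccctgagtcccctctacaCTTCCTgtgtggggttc
Cd247: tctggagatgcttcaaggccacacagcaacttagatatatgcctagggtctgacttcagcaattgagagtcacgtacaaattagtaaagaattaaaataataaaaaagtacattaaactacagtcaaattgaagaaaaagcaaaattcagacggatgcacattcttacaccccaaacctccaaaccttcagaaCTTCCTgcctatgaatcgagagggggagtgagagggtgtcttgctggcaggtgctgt
The table holds 5 of the 9 genes. AGGAAG was found on either strand 2 times before Cd3e, 1 time each before Cd247 and Cd3d, and not before Cd3g or Cd8a. It occurs in 29.5% of all 32851 such windows. The RUNX core TGTGGT (14% of windows) was in none of the 5, the GATA core AGATAA (10%) was before Cd3g alone, and the E-box CANNTG (66.2%) was before each of the 5. A match is a run of letters and does not show binding.

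Cd3g, which encodes CD3 gamma, lies next to Cd3d on chromosome 9 (44969572 to 44980431). It had 526, 207 and 318 CPM in control and 269, 157 and 138 CPM with butyrate. The lowest control library, replicate 2, was below butyrate replicate 1, so the groups overlapped. Its log2 fold change of -0.90 (SE 0.341, 95% interval -1.67 to -0.13) missed the threshold (edgeR adjusted p = 0.0575).

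Within replicate numbers, Cd3g was lower with butyrate in all 3 pairs. With the number as a block its log2 fold change was -0.86 (SE 0.135, edgeR adjusted p = 0.000866) and it was called lower. It was also called lower with no filter (adjusted p = 0.0254), without control replicate 2 (-1.17, adjusted p = 0.0188) and without butyrate replicate 1 (-1.25, adjusted p = 0.018). Without control replicate 1 its log2 fold change was -0.48 (adjusted p = 0.209). The SD of its log2 level was 0.673 between control libraries and 0.512 between butyrate libraries, at the 97.2 and 95.6 percentiles of all tested genes.

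Cd3d, which encodes CD3 delta (chromosome 9, 44981769 to 44987052), had 245, 224 and 226 CPM in control. With butyrate it had 382 CPM in replicate 1 and 173 and 164 CPM in replicates 2 and 3. Butyrate replicate 1 was the highest of all 6 libraries and the other butyrate libraries were the lowest. With all libraries the log2 fold change was 0.05 (SE 0.284, 95% interval -0.59 to 0.69, edgeR adjusted p = 0.9). With butyrate replicate 1 left out it was -0.46 (adjusted p = 0.00436), a call in the lower direction. The same replicate number was highest for Cd3g in each group, while Cd3e, the third gene of the cluster, was at 298 and 202 CPM in those libraries, near or below its group means.

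With the block, 4 of the 9 genes were called lower (Trbc1, Cd3e, Cd247 and Cd3g) and 1 higher (Trac). Without butyrate replicate 1, 5 were called lower, Cd3d and Cd3g being added to the 3. Every alternative run called Trbc1, Cd3e and Cd247, with adjusted p of at most 0.00101, 0.00516 and 0.00341.

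**Figure D2:**
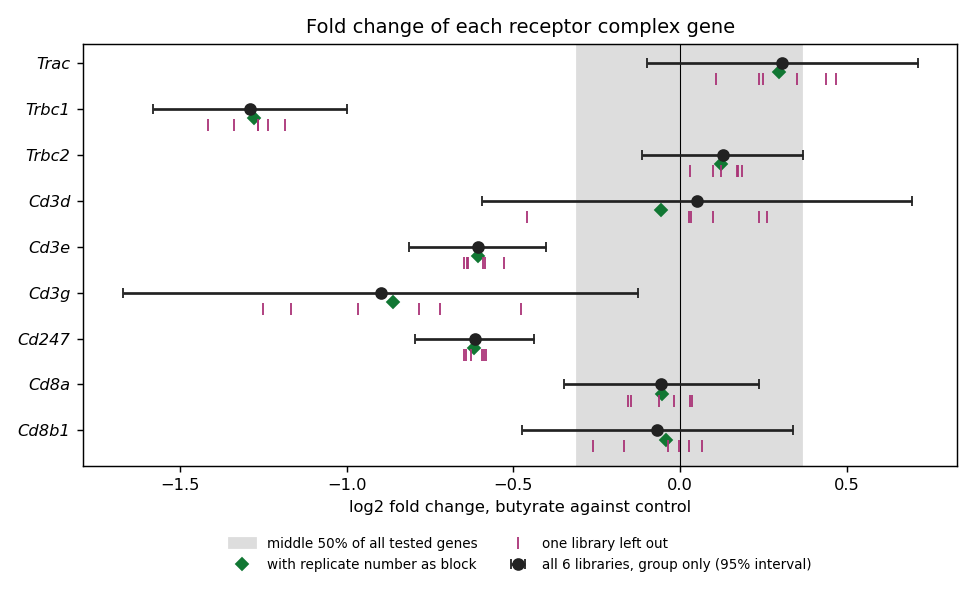
Log2 fold change (horizontal axis) of each gene with its 95% interval (black), the value with the replicate number as a block (green) and the values with 1 library left out (purple ticks), over the middle 50% of all tested genes (grey). Trbc1, Cd3e and Cd247 keep close to -1.29, -0.61 and -0.62, and the ticks of Cd3d run from -0.46 to 0.26.

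The CD8 chains showed no call. Cd8a, needed in every form of CD8 (chromosome 6, 71373427 to 71379171), had 472, 505 and 385 CPM in control and 441, 489 and 379 CPM with butyrate. In both groups replicate 2 was highest and replicate 3 lowest. Its log2 fold change was -0.06 (95% interval -0.35 to 0.23, edgeR adjusted p = 0.741).

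Cd8b1, whose product pairs with CD8 alpha to form the coreceptor of conventional cytotoxic T cells (chromosome 6, 71322788 to 71337492), had 296, 311 and 188 CPM in control. It had 287, 241 and 229 CPM with butyrate, all inside the control range. The log2 fold change was -0.07 (95% interval -0.48 to 0.34, edgeR adjusted p = 0.777). The direction of Cd8a and Cd8b1 turned with upper quartile scaling (log2 fold changes of 0.03 and 0.01), so no direction is given for either. Their intervals do not reach the log2 fold changes of Trbc1, Cd3e or Cd247. The interval of Cd8b1 overlaps those of Cd3e (-0.81 to -0.40) and Cd247 (-0.80 to -0.44), however, and a difference between Cd8b1 and these genes was not tested.

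Ratios between members within a library do not depend on library scaling, and 8 were compared with an exact two-sided permutation test. With 3 against 3 libraries the smallest p it can give is 0.1. In 3 ratios the groups did not overlap, each at exact p = 0.1 (0.267 after Benjamini-Hochberg adjustment over these 8). Trbc1 to Trbc2 was 0.175, 0.180 and 0.118 in control and 0.060, 0.067 and 0.050 with butyrate, a log2 difference of -1.40. Cd8a to Cd3e, the coreceptor against a core signalling chain, was 1.58, 1.69 and 1.11 in control and 2.19, 2.46 and 1.74 with butyrate, a log2 difference of 0.55 (0.36 without control replicate 3).

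Cd3g to Cd3d was 2.14, 0.924 and 1.41 in control and 0.704, 0.904 and 0.839 with butyrate, a log2 difference of -0.79. The gap between its groups was small, since control replicate 2 lay next to butyrate replicate 2. The log2 difference was -0.49 without control replicate 1 and -1.10 without control replicate 2. Cd8b1 to Cd8a was 0.488 to 0.627 in control and 0.494 to 0.652 with butyrate (exact p = 0.9). Trac to the sum of Trbc1 and Trbc2 was 0.948 to 1.24 in control and 1.13 to 1.48 with butyrate (exact p = 0.2). Within replicate numbers this ratio was higher with butyrate in all 3 pairs, by 0.39, 0.26 and 0.26 on the log2 scale. Cd3d to Cd3e overlapped between groups (exact p = 0.2) but was also higher in all 3 pairs, by 1.2, 0.21 and 0.21, with a log2 difference of 0.54 that went to 0.13 without butyrate replicate 1. Cd3g to Cd3e overlapped too (exact p = 0.6) and differed in direction between pairs. An exact two-sided sign-flip test over 3 pairs cannot go below 0.25, the value it gave for each of the 5 ratios whose pairs all moved one way.

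**Figure D3:**
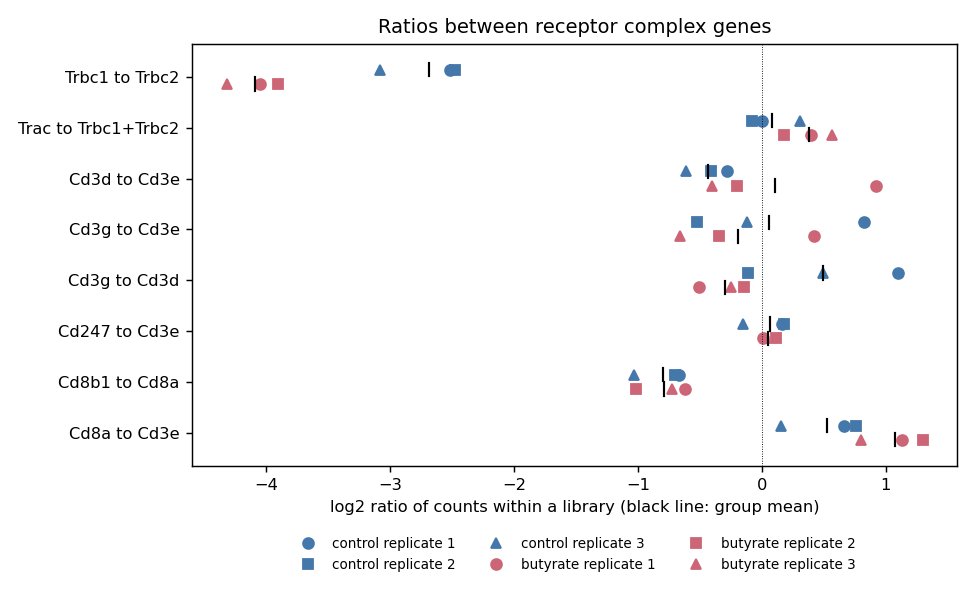
Log2 ratio of counts (horizontal axis) for 8 pairs of receptor complex genes in each control (blue) and butyrate (red) library, with black lines at group means. The groups separate for Trbc1 to Trbc2, Cd3g to Cd3d and Cd8a to Cd3e, and Cd247 to Cd3e and Cd8b1 to Cd8a have nearly equal means.

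Levels were compared between genes as CPM per kilobase of the longest annotated coding transcript. In control, Trbc2 (2420 ± 153 per kilobase) and Trac (2207 ± 387) were highest and overlapped. Far below them came Trbc1 (355 ± 60.8) and Cd3g (342 ± 158), then Cd3e (215 ± 18.8), Cd8b1 (179 ± 45.3), Cd8a (145 ± 19.9), Cd3d (143 ± 7.32) and Cd247 (111 ± 4.87, SD, n = 3 each). Of neighbours in this order, Trbc1 and Cd3g, Cd3g and Cd3e, Cd3e and Cd8b1, Cd8b1 and Cd8a, and Cd8a and Cd3d differed by less than their spread. With butyrate, Trac (2729 ± 634) and Trbc2 (2642 ± 298) still led, and Trbc1 was at 145 ± 7.99, a level shared by Cd3d (148 ± 76.4), Cd3e (141 ± 6.87) and Cd8a (139 ± 17.6). The values of the CD3 genes depend on the length used, and Cd3e was at 76.9 in control when exons of all annotated transcripts were counted.

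Proteins that carry the receptor's signal were taken as a list of 48 genes, all of which passed the filter. Of these, 29 were lower, 8 higher and 11 not called (median log2 fold change -0.41, and 77.1% called against 45.9% of all tested genes). Dok2, an adaptor that restrains receptor signalling, stood at 354, 262 and 291 CPM in control and 126, 94.9 and 95.3 CPM with butyrate (-1.52 on the log2 scale, adjusted p = 0.000115 by edgeR). Fyb, an adaptor that links the receptor to integrins, went from 177 ± 12.5 to 75.9 ± 14.3 CPM (SD, n = 3). Both were lower in every butyrate library. Ubash3b, a phosphatase that dampens ZAP-70 signalling, rose from 29.8 ± 4.29 to 60.0 ± 4.30 CPM (log2 fold change 1.01), and the kinase gene Tec from 18.9 ± 2.48 to 35 ± 6.11 CPM (0.89). The list was drawn up with earlier results of these libraries known, so its count is not independent evidence of a direction.

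Of 34 transcription factor genes tied to T cell receptor, CD3 or CD8 gene control or to CD8 T cell identity, 18 were lower, 6 higher and 10 not called. The median log2 fold change was -0.33, and 70.6% were called against 45.9% of all tested genes. This list too was drawn up with earlier results of these libraries known, so its count is not independent evidence of a direction. Tcf12, which encodes the E protein HEB, went from 139 ± 3.69 to 88.2 ± 5.97 CPM (SD, n = 3, log2 fold change -0.66, edgeR adjusted p = 0.000349). Elf1, an ETS family factor, went from 352 ± 15.3 to 228 ± 11.7 CPM (-0.63, adjusted p = 0.000401). The rises with the smallest p were those of Prdm1, which encodes the effector factor Blimp-1 (34.4 ± 8.73 to 179 ± 27.1 CPM), and of Myb (35 ± 4.72 to 112 ± 17.0 CPM). No link between these factors and the receptor genes was tested.

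Among 12 other receptor chains and partners, 10 passed the filter, of which 2 were lower, 2 higher and 6 not called. That is 40% called, no more than the 45.9% of all tested genes. Trdc, the delta chain constant region, which lies before Trac on chromosome 14 (54142851 to 54146108), had 453, 406 and 459 CPM in control and 181, 184 and 138 CPM with butyrate. Every butyrate library was below every control (-1.39 on the log2 scale, SE 0.121, adjusted p = 7.21e-05 by edgeR). Cd1d1, which presents lipids to other T cells, went from 24.4 ± 1.35 to 13.2 ± 1.68 CPM (SD, n = 3). Cd4, the coreceptor of helper T cells, had 11 counts in all control libraries together and 77 in the butyrate libraries (log2 fold change 2.82, and 4.51 without control replicate 3). Tyrobp, an ITAM adaptor of NK and myeloid cells, had 25 and 50 counts, and its call (edgeR adjusted p = 0.048) was lost in 7 of 15 alternatives, among them DESeq2 (0.124), with a range of 0.0271 to 0.139.

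Genes whose whole span lay within 100000 bases of the member loci numbered 89, most of them joining segments, and 32 passed the filter. Of those, 18 were lower and 3 higher (65.6% called against 45.9% of all tested genes), and 12 of the lower ones lay among 16 tested at the Trbc locus. Segments of 1 receptor locus are not separate genes, so this share does not compare like with like. Outside the receptor segments and Trdc, the calls were Jaml, Krcc1 and Rmnd5a lower and Mpzl2, Creg1 and Abhd4 higher. The joining segment Trbj2-1 fell by 1.70 on the log2 scale. On chromosome 9, the adhesion protein gene Mpzl2 spans 45042344 to 45054043. This span begins 32681 bases above the upper coordinate of Cd3e, a minus-strand gene, and so on the side of the Cd3e transcription start. Mpzl2 had 0.720, 3.15 and 1.95 CPM in control and 26.3, 26.5 and 40.3 CPM with butyrate (3.99 on the log2 scale, SE 0.347, adjusted p = 7.15e-05 by edgeR). It rose in all butyrate libraries while Cd3e was lower in each. Creg1, which lies before Cd247 on chromosome 1, went from 25.5 ± 5.43 to 61.2 ± 3.13 CPM, also opposite to its neighbour.

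**Figure D4:**
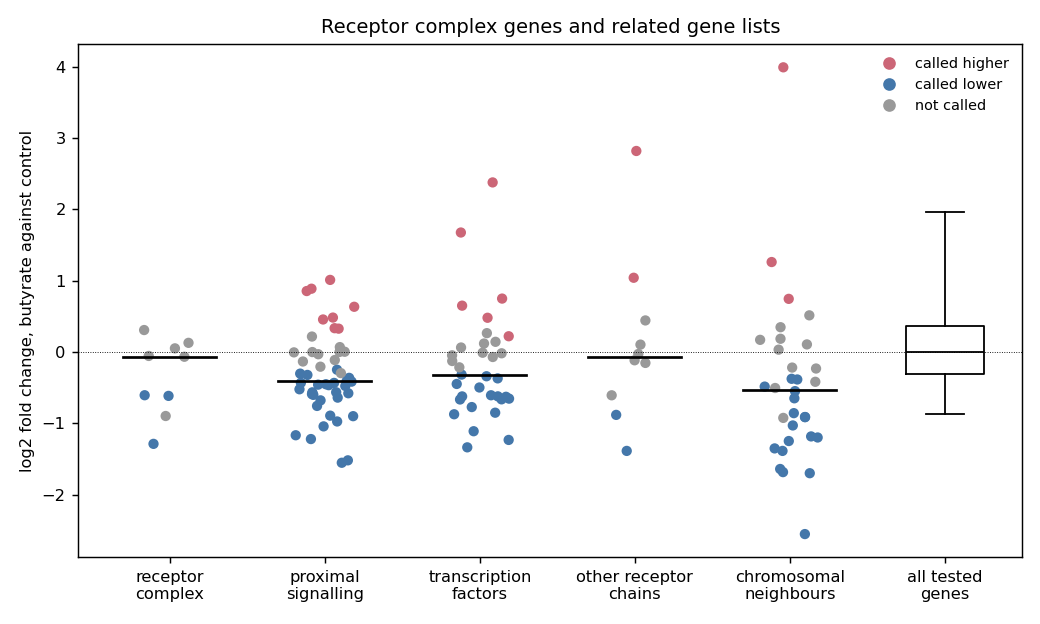
Log2 fold change (vertical axis) of tested genes in the receptor complex and 4 related lists, coloured by call, with black lines at list medians, and of all tested genes as a box (quartiles, whiskers at the 5 and 95 percentiles). The medians of the signalling, transcription factor and neighbour lists are -0.41, -0.33 and -0.53, and 0.00 over all tested genes.

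The genes whose profile over the 6 libraries was most like that of Trbc1 were Cip2a, Ints6l and Cenpl, by the root mean squared difference of log2 levels after each gene's own mean was subtracted (0.121, 0.126 and 0.130). They went from 156 ± 12.8 to 68.2 ± 10.7, from 39.1 ± 5.28 to 15.5 ± 1.86 and from 97.4 ± 7.16 to 42.0 ± 3.17 CPM (SD, n = 3). This likeness was taken over the libraries that gave the fold change of Trbc1 and describes them alone.

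Other T cell genes were read beside the complex. The summed level of 8 T cell markers (Cd2, Cd5, Cd6, Cd7, Cd28, Thy1, Lck and Cd27) was 3610 to 4102 CPM in control and 3175 to 3323 CPM with butyrate, and 3 of the 8 (37.5%) were called lower, against 22.5% of all tested genes. The called genes were Cd7, Cd27 and Lck, which is also in the signalling list. Thy1, the most abundant (2023 to 1757 CPM), and Cd2, Cd5 and Cd6 were not called. Cd28 was higher in mean (557 to 621 CPM) and not called. Markers of other spleen cells stood far below the T cell marker sum. The sum of 8 macrophage and dendritic cell markers was 30.8 to 84.5 CPM in control and 127 to 130 CPM with butyrate (2 of 5 tested called higher, where 23.5% of all tested genes were). Itgam (4.08 to 44.1 CPM) and H2-Ab1 (8.95 to 38.3 CPM) were the called genes. Csf1r and Adgre1 had 16 and 2 counts in control and 10 and 2 with butyrate. Lyz2, Itgax and Cd68 had more, with 402, 181 and 86 counts in control and 417, 181 and 133 with butyrate, and were not called. The sum of 8 B cell and plasma cell markers was 27.4 to 29.7 and 40.8 to 49.2 CPM, with Cd22 and Sdc1 called higher of 4 tested. In this list Pax5 had 0 counts in all libraries. Cd79b and Jchain had 233 and 170 counts in control and 198 and 153 with butyrate, and were not called. The 6 granulocyte markers summed to at most 0.973 CPM in control and to 3.51 to 8.13 CPM with butyrate, and the 5 erythroid markers to at most 0.900 and to 6.36 to 39.7 CPM. In control, 2 genes of each of these lists were at 0 counts. With butyrate most of the granulocyte sum was Cxcr2 alone (3.14, 4.30 and 5.73 CPM in replicates 1 to 3). The highest erythroid sum came from Hbb-b1 in 1 library (2.96, 1.89 and 31.4 CPM in butyrate replicates 1 to 3). NK cell markers summed to 93.3 to 106 and 67.8 to 92.6 CPM (1 of 3 tested called higher, 1 lower, and Klra8 at 0 counts in control). Most of that sum was Eomes, also in the transcription factor list and the gene called lower (83.2 ± 9.20 to 54.6 ± 8.25 CPM, SD, n = 3). Klrb1c was the gene called higher (3.39 to 10.9 CPM). CD4 T cell markers summed to 270 to 369 and 596 to 610 CPM (3 of 4 tested called higher). Most of that sum was Ctla4 (233 to 478 CPM) and Zbtb7b (69.8 to 117 CPM). Cd4 itself, also called higher, was at 0.608 and 4.63 CPM. Cd40lg was lower in mean (7.27 to 4.85 CPM) and not called, and Foxp3, with 4 and 5 counts, was not tested. In these lists of other cells, calls among 1 to 5 tested genes are too few to set against the share of all genes. The part of these shifts in the values of the receptor genes was not tested.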

How the data were processed

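RNA was measured in 6 libraries, with 5383380 to 6244350 counts each. Raw counts of reads for each gene number, 1 column per library, stand in a table as the authors deposited it. Tools listed without roles in the submitters' processing notes are TopHat, CASAVA, Picard, Subread, featureCounts and edgeR, with the build mm10. Settings for strand and for reads with multiple matches were not stated, so overlapping and near-identical genes are uncertain. RefSeq (GRCm38.p6) named 25275 of 27179 gene numbers and GENCODE 18 more.

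Butyrate was compared with control by edgeR 4.0.16 (R 4.3.3), with TMM scaling, filterByExpr, the quasi-likelihood F test and Benjamini-Hochberg adjustment over 11740 genes. SE is the absolute log2 fold change over the root of F, and intervals use the moderated degrees of freedom. The procedure was tested on simulated data. Ratios within a library were compared by exact permutation and, chosen after seeing the data, by sign flips within replicate numbers. A count of 0 allows up to 3 counts, or 0.487 to 0.556 CPM, for counting error only. Replicates varied beyond sampling error (chi-square over its degrees of freedom, 5.43 to 10.6).

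After group means were subtracted, libraries with the same replicate number correlated over genes (r = 0.362, 0.197 and 0.353), and other pairs of control and butyrate libraries at -0.301 to -0.075. With 3 libraries a group, the centring pushes other pairs below 0 where same-number pairs are above it. The negative values therefore add no separate evidence. The labels do not tie the replicate numbers to a mouse or day. The pairing rests on the same-number values alone, and blocked values stand beside results they change.

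Alternatives were 4 scalings, 2 filters, DESeq2 1.42.0, limma 3.58.1 voom, robust edgeR, the block and each library left out. Members and lists were chosen with earlier results of these data known. Named genes were all members, up to 2 called genes per direction and list by p, and the 3 profiles nearest to the member with the smallest p.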

Additional observations from a re-analysis of the deposited data

How the results depend on the processing

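The calls of Trbc1, Cd3e and Cd247 and their direction held in all 16 alternatives. Called members numbered 3, but 5 with the replicate block, and 3 to 5 with 1 library left out. The block made Trac (0.295, adjusted p = 0.0287) and Cd3g (-0.861, 0.000866) called, turned Cd3d to -0.058 and changed no other call of a member or named gene. Called genes numbered 6315 with the block and 5393 without it. With no filter Cd3g was called at -0.94. Cd3d was at -0.063 with limma voom, and upper quartile scaling turned Cd8a to 0.025 and Cd8b1 to 0.013. Called genes among other receptor chains went from 4 to 2 with at least 5 CPM in 3 libraries, where fewer genes were tested. With 1 library left out, log2 fold changes ran from 0.107 to 0.466 for Trac, -0.458 to 0.26 for Cd3d, -1.25 to -0.477 for Cd3g, -0.158 to 0.034 for Cd8a and -0.261 to 0.066 for Cd8b1. Log2 ratio differences ran from -1.098 to -0.49 for Cd3g to Cd3d, 0.133 to 0.797 for Cd3d to Cd3e, -0.559 to 0.129 for Cd3g to Cd3e, -0.12 to 0.046 for Cd247 to Cd3e and -0.101 to 0.13 for Cd8b1 to Cd8a. Levels per kilobase in control with exons of all transcripts, chosen after seeing the data, were 127.7 for Cd3d, 76.92 for Cd3e, 107.1 for Cd3g, 61.34 for Cd247 and 124.7 for Cd8a. Coding length was not run, since no protein table was used here. Beyond these the cause was not tested. With 3 libraries a group, depth did not limit the members, which had at least 560 counts in each library.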
